A study of Mus musculus with 4 samples.

Results

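The enzymes that place and remove acyl groups on lysine, and the bromodomain proteins that bind acetylated lysine, were followed through 33 genes. They were taken by symbol from the 55335 genes of the deposited tables, and each symbol matched 1 Ensembl gene. The 33 genes comprised 10 lysine acetyltransferases (writers), 18 deacetylases (erasers, Hdac1 to Hdac11 and Sirt1 to Sirt7) and 5 bromodomain proteins (readers). RNA was sequenced from AB2.2, a line of mouse embryonic stem cells (ESCs). All 4 libraries came from this line, grown on feeder cells (mouse embryonic fibroblasts, MEF). The medium of both groups held serum (15%), LIF (leukemia inhibitory factor, at 1000 U/ml), and the GSK3 and MEK inhibitors CHIR99021 (3 μM) and PD0325901 (1 μM). Libraries 1 and 2 of the first group were labelled control, and libraries 1 and 2 of the lactate group came from cells kept for 24 h in 50 mM lactate. The labels do not say whether the 2 libraries of a group were separate cultures, so p-values measure only the spread between these libraries, which may be technical.

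Histone lysines carry acetyl groups and several longer or substituted acyl groups, among them the lactyl group derived from lactate. The p300 and CBP proteins, the GCN5/PCAF pair and the MYST family transfer acetyl groups from acetyl-CoA, and p300 has been put forward as a writer of histone lactylation. Class I, II and IV deacetylases use zinc, whereas sirtuins use NAD+, and several of both have been described as removing acyl groups other than acetyl. Bromodomains bind acetylated lysine and bring the transcription machinery or chromatin remodellers to it. In ESCs these proteins act at enhancers and promoters and in corepressor complexes. The question addressed here is whether the RNA of these genes differed between lactate and control cells. RNA level does not measure enzyme activity or histone marks, which were not analysed here.

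Reads counted on genes ranged from 18067562 to 19077885 per library. Mitochondrial transcripts took 5.48% and 2.43% of them in control libraries 1 and 2, and 5.72% and 2.82% in lactate libraries 1 and 2. All 12 ESC markers checked were counted in every library, and their summed level ranged from 6348 to 6780 CPM (reads relative to library size) in control and from 6816 to 7602 CPM in lactate. The single markers moved both ways, 7 higher and 5 lower, with log2 fold changes from -0.54 to 0.56, and none was called. At an unadjusted p under 0.05 (edgeR), 4 were higher and 2 lower (50%, against 23.1% of all genes tested). The 15 feeder fibroblast markers were also counted in every library, with sums from 559 to 798 CPM in control and from 562 to 640 in lactate, and none of them was at 0. In bulk RNA, fewer cells of a type and less RNA per cell cannot be told apart, and the feeder share of each level below was not tested. Summed markers of primitive endoderm, a cell type that can arise in ESC culture, ran from 15.2 to 17.0 CPM in control and from 21.1 to 28.5 CPM in lactate, and all 6 of its 8 genes that could be tested had positive log2 fold changes, with none called.

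Nearly all of these genes were expressed in control cells. FPKM, which divides the reads by transcript length and library size and so allows levels to be compared between genes, was above 1 in the control mean for 32 of the 33 genes and above 10 for 25. The median over the 33 genes was 22.3 FPKM, against 13.1 over all genes above 1 FPKM. Hat1, the type B acetyltransferase that modifies newly made histone H4, was highest, with 342 and 360 FPKM in the control libraries. Brd2 followed with 196 and 141 FPKM and Kat6b with 169 and 156, and these neighbours did not differ beyond their spread. Hdac1, Hdac2 and Kat7 were the other genes above 100 FPKM. At the lower end, Hdac11, Hdac8 and Hdac10 lay between 2.09 and 3.34 FPKM in the control libraries, and Hdac9 at 0.42 and 0.33 FPKM rested on only 21 and 14 reads assigned by RSEM.

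**Figure D1:**
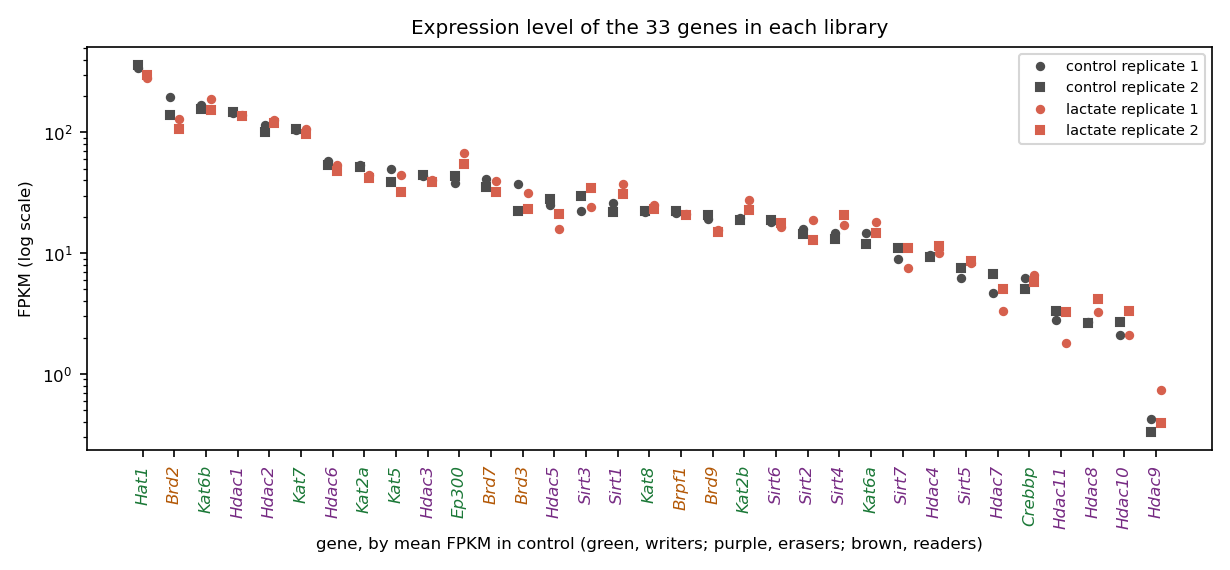
FPKM of the 33 genes in each of the 4 libraries on a log scale, ordered by the control mean, with grey for control, red for lactate, circles for replicate 1 and squares for replicate 2. The order runs from Hat1, with 342 and 360 FPKM in control, to Hdac9, with 0.42 and 0.33 FPKM, and the red and grey points of most genes lie close together.

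Within families, a single member often held most of the RNA. Of the summed TPM (another level scaled by length) of Ep300 and Crebbp, Ep300 held 87.8% in the control mean. Kat6b held 46.6% of the summed TPM of the 5 MYST genes and Kat7 30.4%. Hdac1 and Hdac2 together dominated class I, with 48.7% and 35.9%. Hdac5 held 63.1% of class IIa, Hdac6 held 95.9% of class IIb, and Brd2 held 85.2% of the BET pair Brd2 and Brd3. The sirtuins were spread more evenly, with Sirt3 at 22.7%, Sirt1 at 20.97% and Sirt6 at 16.2% of the family's TPM.

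Lactate was compared with control by the quasi-likelihood test of edgeR, fitted to raw counts of the 18661 genes that passed its filter on low counts, and all 33 genes were among them. None of the 33 genes was called, whether the rule was adjusted p below 0.05 plus a difference beyond 2-fold or adjusted p alone. Over all genes tested, 0.900% and 0.991% passed these 2 rules. The smallest adjusted p-value among the 33 genes was 0.108, for Hdac5. Without adjustment, 7 of the 33 genes (21.2%) had p under 0.05, against 23.1% of all genes tested. These were Kat2a, Hat1, Hdac5, Hdac7, Brd2 and Brd9, which were lower with lactate (11.4% of all genes were lower by this rule), and Sirt1, which was higher (11.7%). DESeq2 also gave 0 of the 33 an adjusted p-value under 0.05, where 4.99% of all genes with an adjusted p-value passed, and gave 4 an unadjusted p under 0.05, where 8.70% of all genes had one. When any 1 of the 4 libraries was left out, 0 to 2 of the 33 genes had an unadjusted p under 0.05 in edgeR, against 14.6% to 21.5% of all genes in the same fits.

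The changes were small. Log2 fold changes ran from -0.60 for Hdac5 to 0.46 for Sirt5, with a median of -0.02, against a median of 0.01 over all genes tested, and 14 genes had a positive and 19 a negative value. With libraries scaled by their totals alone, 18 were positive and 15 negative, and the median over all genes moved to 0.08. The 95% intervals of the log2 fold change, not adjusted for the number of genes, lay inside a 2-fold change in either direction for all 33 genes, which held for 63.6% of all genes tested. For 11 of the 33 they also lay inside a 1.5-fold change, against 21.7% of all genes. The intervals of the 33 genes were narrower, with a median standard error of 0.16 against 0.21 over all genes. A mean above 10 CPM was reached by 28 of the 33 and by 10220 of all 18661. These shares therefore do not compare the sizes of change alone. In 16 of the 33 genes (48.5%) both lactate libraries lay on the same side of both control libraries in CPM, with 5 higher and 11 lower, and this share was 52.9% over all genes tested (27.0% higher and 25.9% lower).

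**Figure D2:**
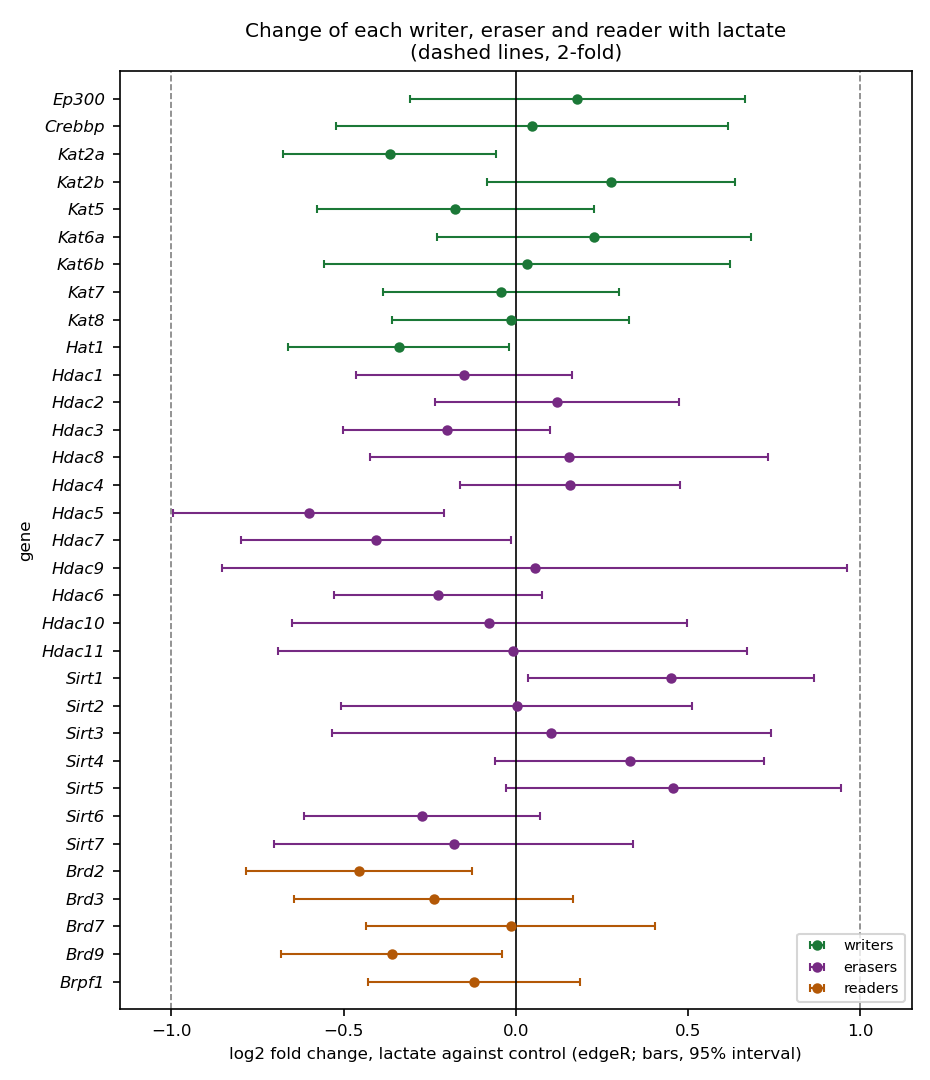
Log2 fold change of each of the 33 genes, lactate against control, from edgeR on the raw counts, with bars for the 95% interval, dashed lines at a 2-fold change, and green for writers, purple for erasers and brown for readers. Every interval stays inside the dashed lines, the lowest point is Hdac5 at -0.60, and all 5 readers lie below 0, Brd7 only by 0.01 and above 0 under 2 other scalings.

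Ep300 (ENSMUSG00000055024.12, chromosome 15, 81585351 to 81652077 on GRCm38) encodes p300, and had 4347 and 3738 reads in control libraries 1 and 2 and 5407 and 4274 in lactate libraries 1 and 2. After TMM normalisation these were 251 and 197 CPM in control and 291 and 217 CPM in lactate. The groups overlapped, since lactate library 2 lay below control library 1. Each lactate library lay above the control library of the same number, but the labels do not say what a number marks. The log2 difference was 0.18 (SE 0.20), with adjusted p = 0.649 (edgeR) and a 95% interval from -0.31 to 0.66. Crebbp (ENSMUSG00000022521.10, chromosome 16, 4081328 to 4213997), which encodes the paralog CBP, had 62.4 and 44.4 CPM in control and 64.8 and 45.5 in lactate. Its log2 difference was 0.05 (SE 0.23), with adjusted p = 0.932 (edgeR) and an interval from -0.52 to 0.62. For both genes the higher library of each group was the one with the larger share of mitochondrial reads. The part of that share in these levels was not tested.

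The FPKM of Ep300 moved more than its reads. It was 37.8 and 43.7 (control) and 67.0 and 54.8 (lactate), so the groups did not overlap. The log2 fold change on the log2(FPKM + 1) scale was 0.56 (SE 0.17), with adjusted p = 0.300 (limma), in a fit where 0 of 20019 genes had an adjusted p under 0.05. The length of Ep300 that RSEM estimated from the isoform mix of each library, by which FPKM is divided, was 6968 and 4983 bases in control and 4831 and 4577 bases in lactate. Control library 1 thus stood apart from the other 3 libraries in length. GENCODE M21 lists 10 transcripts of Ep300, of which 4 are coding, with 401 to 9566 bases, and isoforms were not counted separately in these tables. For Brd2 the estimated length was 2088 and 2794 bases in control and 2474 and 2716 in lactate, again with a wider gap between the control libraries than between the group means.

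**Figure D3:**
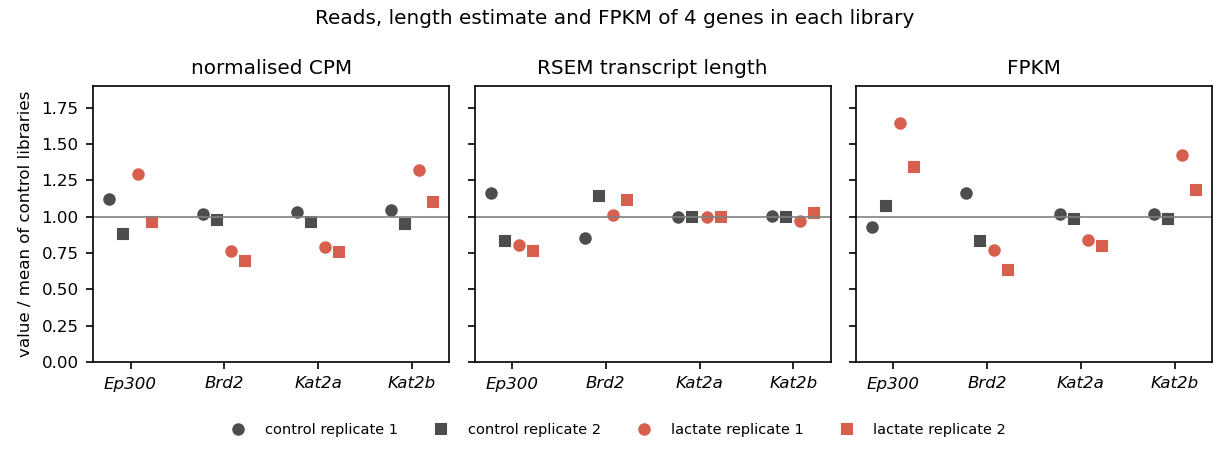
Normalised CPM, estimated transcript length and FPKM of Ep300, Brd2, Kat2a and Kat2b in each library, each divided by the mean of the 2 control libraries, with grey for control, red for lactate, circles for replicate 1 and squares for replicate 2. The Ep300 groups overlap in CPM and separate in FPKM, where the lactate libraries held 67.0 and 54.8, and the lengths of Kat2a and Kat2b stay close to 1.

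The GCN5/PCAF pair went in opposite directions without reaching the adjusted threshold. Kat2a (ENSMUSG00000020918.14, chromosome 11, 100704746 to 100712465) encodes GCN5, the catalytic subunit of the SAGA and ATAC coactivator complexes, and had 151 and 141 CPM in control and 116 and 111 CPM in lactate. Each lactate value was under each control value. The log2 difference was -0.37 (SE 0.13), with adjusted p = 0.163 (edgeR). Kat2b, which encodes the paralog PCAF, had 90.8 and 82.4 CPM in control and 114 and 95.3 in lactate, a log2 difference of 0.28 at adjusted p = 0.324.

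None of the 5 MYST genes separated the groups. Kat6b, the most highly expressed of them, had 718 and 503 CPM in control and 732 and 517 CPM in lactate, so the libraries of a group differed far more than the group means, with a log2 fold change of 0.03. Kat6a had 130 and 101 CPM in control and 152 and 119 in lactate, a log2 fold change of 0.23. Kat7, the HBO1 enzyme, Kat8, the MOF enzyme, and Kat5, the Tip60 enzyme of the NuA4 complex, had log2 fold changes of -0.04, -0.02 and -0.18. Their adjusted p-values were 0.523 or higher (edgeR). Hat1 (ENSMUSG00000027018.11, chromosome 2, 71388958 to 71441622) had 455 and 471 CPM in control and 358 and 373 in lactate. Both lactate libraries were lower, with a log2 fold change of -0.34, SE 0.13 and adjusted p = 0.197 (edgeR).

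Of the class I deacetylases, Hdac1 to Hdac3 are the catalytic subunits of the NuRD, Sin3, CoREST and NCoR corepressor complexes. Hdac1 had 254 and 252 CPM in control and 235 and 221 in lactate, a log2 fold change of -0.15 with an interval from -0.46 to 0.16. Hdac2 had 206 and 174 CPM in control and 214 and 199 in lactate, a log2 fold change of 0.12 with an interval from -0.23 to 0.47. Hdac3, the enzyme of NCoR, had 76.0 and 75.4 CPM in control and 67.6 and 64.1 in lactate, a log2 fold change of -0.20. The groups of Hdac1 and Hdac3 did not overlap and those of Hdac2 did, and none of the 3 had an adjusted p-value below 0.384 (edgeR). Hdac8 was counted with only 87 to 126 reads per library and had a log2 fold change of 0.15, with a wider interval from -0.42 to 0.73.

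Class IIa deacetylases move between nucleus and cytoplasm and bind MEF2 factors. Hdac5 (ENSMUSG00000008855.17, chromosome 11, 102194432 to 102230166) had the largest difference of the 33 genes, with 60.8 and 75.7 CPM in control and 42.0 and 48.0 in lactate. Each lactate value was under each control value. The log2 difference was -0.60 (SE 0.16), with adjusted p = 0.108 (edgeR) and an interval from -0.99 to -0.21. Hdac7 (ENSMUSG00000022475.19, chromosome 15, 97792664 to 97844502) had 17.98 and 17.7 CPM in control and 12.7 and 14.2 in lactate, also without overlap. Its log2 difference was -0.41 (SE 0.16), with adjusted p = 0.205 (edgeR). Hdac4, in contrast, had 40.8 and 41.1 CPM in control and 43.9 and 47.3 in lactate, a log2 fold change of 0.16 with an interval from -0.16 to 0.48. The expression of Hdac9 was too low to narrow its interval below -0.85 to 0.96. Hdac5 held 54.1% of the TPM of class IIa in the lactate mean and Hdac4 32.0%, against 63.1% and 22.6% in control.

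The remaining zinc deacetylases are the class IIb genes Hdac6, the tubulin deacetylase, and Hdac10, a polyamine deacetylase, and the class IV gene Hdac11, which removes long fatty acyl groups. Hdac6 had 171 and 169.9 CPM in control and 147 and 144 in lactate, without overlap, and a log2 difference of -0.23 at adjusted p = 0.333 (edgeR). Hdac10 and Hdac11 had 63 to 146 reads per library and overlapping groups, with log2 fold changes of -0.08 and -0.01. Over Hdac1 to Hdac11, 7 genes were lower and 4 higher, with a median of -0.08, and with library totals alone 6 were lower and 5 higher, with a median of -0.01.

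Sirtuins need NAD+, and Sirt1, Sirt6 and Sirt7 act mainly in the nucleus, Sirt2 mainly in the cytoplasm, and Sirt3, Sirt4 and Sirt5 in mitochondria. Sirt1 (ENSMUSG00000020063.16, chromosome 10, 63319005 to 63381704) had 92.4 and 77.6 CPM in control and 130 and 102 in lactate. Each lactate value exceeded each control value, and the gap between the lactate libraries was nearly as wide as that between the group means. The log2 difference was 0.45 (SE 0.17), with adjusted p = 0.189 (edgeR) and an interval from 0.03 to 0.87. Sirt5 (ENSMUSG00000054021.6, chromosome 13, 43365496 to 43395203), a desuccinylase, had 69 and 77 reads in control and 99 and 113 in lactate, or 3.99 and 4.06 CPM against 5.33 and 5.73. The 2 libraries of each group lay close together, and the log2 fold change of 0.46 had SE 0.20 and adjusted p = 0.240 (edgeR). Sirt4 had 11.4 and 11.3 CPM in control and 14.3 in both lactate libraries, a log2 difference of 0.33 at adjusted p = 0.280. Sirt3, the main mitochondrial deacetylase, differed widely within each group, with 24.7 and 39.4 CPM in control and 29.2 and 39.7 in lactate. In both groups the library with the smaller share of mitochondrial reads had more Sirt3, and the part of that share was not tested. Sirt6 was lower in both lactate libraries, with 30.1 and 31.9 CPM in control and 25.9 and 25.4 in lactate and a log2 fold change of -0.27, while Sirt7 and Sirt2 had overlapping groups and log2 fold changes of -0.18 and 0.00.

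All 5 readers had negative log2 fold changes, from -0.45 to -0.01 with a median of -0.24, although Brd7 turned positive (0.02 and 0.05) with upper-quartile factors and with library totals alone, and none was called. Brd2 (ENSMUSG00000024335.20, chromosome 17, 34112023 to 34122634) encodes a BET protein, a family that binds acetylated histone H4 and assists transcription. It had 351 and 337 CPM in control and 263 and 238 in lactate, so each lactate value was under each control value. The log2 difference was -0.45 (SE 0.14), with adjusted p = 0.127 (edgeR) and an interval from -0.78 to -0.13. The other BET gene of the set, Brd3, had 131 and 100.2 CPM in control and 102 and 93.8 in lactate, with overlapping groups and a log2 fold change of -0.24. Brd9 (ENSMUSG00000057649.6, chromosome 13, 73937811 to 73960895), a subunit of the non-canonical BAF remodeller, had 41.3 and 42.6 CPM in control and 32.7 in both lactate libraries. Its log2 difference was -0.36 (SE 0.13), with adjusted p = 0.178 (edgeR). Brd7 of the PBAF remodeller and Brpf1, the scaffold of the Kat6a and Kat6b complexes, had log2 fold changes of -0.01 and -0.12.

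**Figure D4:**
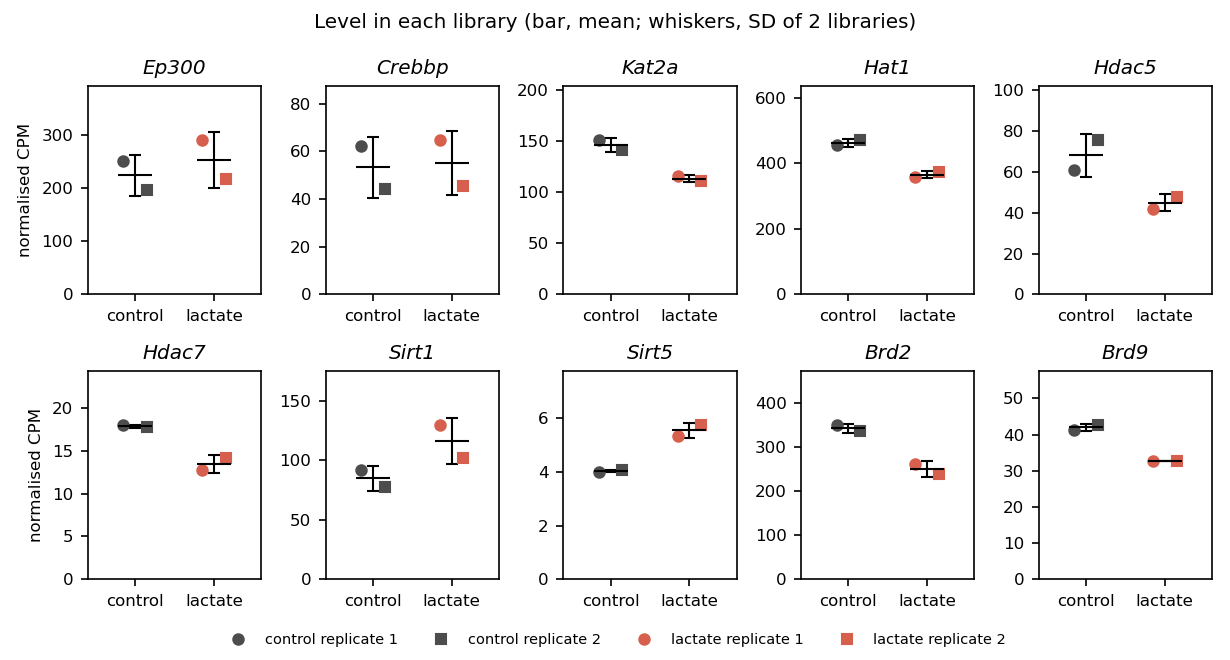
Normalised CPM of Ep300, Crebbp and the 8 genes with the largest absolute log2 fold changes in each library, with circles for replicate 1, squares for replicate 2, a bar for the mean and whiskers for the SD of the 2 libraries. The lactate points lie below the control points for Kat2a, Hat1, Hdac5, Hdac7, Brd2 and Brd9, lie above them for Sirt1 and Sirt5, and overlap with them for Ep300 and Crebbp.

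Ratios between paralogs within a library do not depend on how libraries are scaled. The 6 pairs given here were picked after the values had been seen, and 2 libraries against 2 cannot give a two-sided exact permutation p below 0.333. The FPKM of Kat2b over that of Kat2a was 0.367 and 0.366 in control and 0.622 and 0.545 in lactate. Brd3 over Brd2 was 0.191 and 0.158 in control and 0.246 and 0.220 in lactate, and Hdac2 over Hdac1 was 0.801 and 0.677 in control and 0.912 and 0.875 in lactate. The ratio of Kat6a to Kat6b was 0.0873 and 0.0765 in control and 0.0950 and 0.0954 in lactate. Ep300 over Crebbp was 6.12 and 8.59 in control and 10.2 and 9.56 in lactate, and these FPKM ratios rest on the length estimates above. The lengths of Brd2, Brd3 and Kat6b also differed between the control libraries. In RSEM reads, not divided by length, Brd3 over Brd2 was 0.371 and 0.285 in control and 0.383 and 0.382 in lactate. Kat6a over Kat6b was 0.182 and 0.203 in control and 0.210 and 0.233 in lactate in these reads. The same read ratio of Ep300 over Crebbp was 4.09 and 4.48 in control and 4.52 and 4.79 in lactate. Hdac6 over Hdac10 was 27.98 and 20.2 in control and 25.8 and 14.7 in lactate, with overlapping groups. Because the pairs were picked on their values, the ratios are a description only.

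The subunits and cofactors around these enzymes were followed in 7 further lists, whose 137 genes found in the tables included 135 that were tested. Of these, 54 were higher and 81 lower. Only Taf6l, 1 of the 135, was called, by either rule, where 0.900% and 0.991% of all genes tested passed the 2 rules. With library totals in place of TMM factors, 65 were higher and 70 lower. Taf6l, a core subunit of SAGA, fell from 28.5 and 36.8 CPM in control to 11.7 and 13.3 in lactate, a log2 difference of -1.38 (SE 0.19), with adjusted p = 0.0467 (edgeR). Tada3 and Mbip are named beside it after their values were seen. Tada3, an adaptor that ties GCN5 and PCAF into SAGA and ATAC, had 97.7 and 89.3 CPM in control and 55.0 and 51.2 in lactate, a log2 difference of -0.82 at adjusted p = 0.0520. Mbip of ATAC was higher, with a log2 fold change of 0.69 and adjusted p = 0.110. Over the 20 SAGA and ATAC genes, 10 were higher and 10 lower, with a median of 0.03, against 13 higher and 7 lower with library totals. The call of Taf6l was kept with DESeq2 (adjusted p = 6.3e-06), with RLE or upper-quartile factors, and without mitochondrial genes. It was also kept without a filter, with at least 10 counts in every library and with a replicate block. It was lost with library totals in place of TMM factors (adjusted p = 0.0530, edgeR), on the RSEM expected counts (0.0532, edgeR) and on FPKM. On FPKM, 0 of all 20019 genes tested were called, so the loss there is not particular to Taf6l. The log2 fold change of Taf6l lay between -1.44 and -1.14 in these alternatives.

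Of the 34 corepressor subunits that partner the class I deacetylases, 27 were lower and 7 higher, with a median log2 fold change of -0.16 (24 lower and a median of -0.10 with library totals). At an unadjusted p under 0.05, 9 were lower (26.5%, against 11.4% of all genes) and 0 higher, and none passed with adjustment. Rcor2, the ESC-expressed CoREST subunit, had 206 and 189 CPM in control and 116 and 101 in lactate, a log2 difference of -0.86 at adjusted p = 0.0520 (edgeR). Chd4, the remodelling ATPase of NuRD, had 776 and 794 CPM in control and 447 and 448 in lactate, a log2 difference of -0.81 at adjusted p = 0.0526. Sap30l of the Sin3 complex had a log2 fold change of -0.63 and adjusted p = 0.110. Of the 14 NuA4 genes, 10 were lower, with a median of -0.31 (8 lower with library totals). By the unadjusted rule 5 were lower (35.7%, against 11.4% of all genes) and 0 higher, and none passed with adjustment. The 3 with the smallest p-values, Actl6a, Dmap1 and Ruvbl2, had log2 fold changes of -0.63, -0.55 and -0.57. Among the 16 MYST scaffold subunits, Jade2 of the HBO1 complex had the largest difference, -1.04 with adjusted p = 0.0580, and Brpf3 was at 0.45 and Ing5 at 0.36.

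Among 28 tested readers outside the set, 13 were higher and 15 lower, with a median of -0.04, which became 15 higher and 13 lower with library totals. Smarca4, the bromodomain ATPase of BAF, had 435 and 392 CPM in control and 254 and 226 in lactate, a log2 difference of -0.78 at adjusted p = 0.0578 (edgeR). Brdt, the testis BET gene, had 89 and 69 reads in control and 156 and 134 in lactate, a log2 difference of 0.79 at adjusted p = 0.140, and Atad2b was at 0.40. The 12 other acetyltransferases had 8 higher and 4 lower genes, with Ncoa1 at 0.62, Taf1 at -0.55 and Naa60 at 0.27. In the list of acyl-CoA supply and lactyl donors, 5 of 11 tested genes were higher and 6 lower. Acss1, the mitochondrial acetyl-CoA synthetase, was at 0.67 with adjusted p = 0.0771, Acly, which makes cytosolic acetyl-CoA from citrate, at -0.58 with 0.0841, and Aars, an alanyl-tRNA synthetase described as a lactyltransferase, at 0.48 with 0.121. None of the genes in these 3 lists was called.

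**Figure D5:**
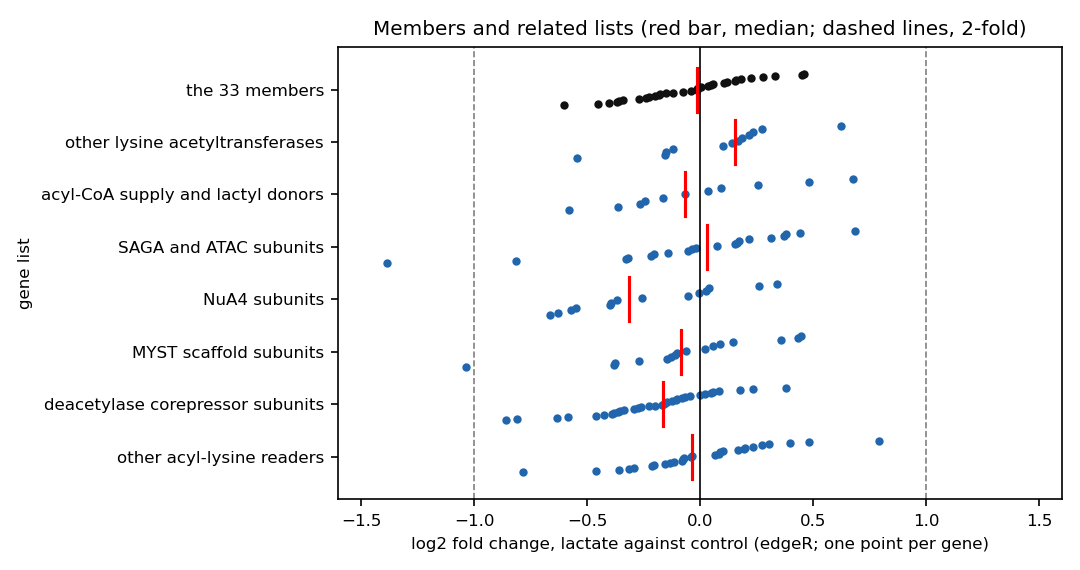
Log2 fold changes from edgeR, lactate against control, of the 33 genes and of the tested genes of 7 related lists, with a point per gene, a red bar at the median and dashed lines at a 2-fold change. The medians run from -0.31 for NuA4 to 0.15 for the other acetyltransferases, and the 33 genes centre on -0.02 with no point beyond 2-fold.

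For some of these genes the counting leaves uncertainty. The sources used here do not say whether counting used strand, and 14 of the 33 genes share exon bases with another annotated gene. The share exceeds 5% of the exon bases for 5 genes. Hdac4 shares 22.4% with Gm26720, Hdac11 17.9% with Gm14573 and Gm44002, Sirt3 12.7% with Psmd13 and Ric8a, Kat5 12.1% with Rnaseh2c, and Brd2 9.78% with H2-DMa and CR974462.3, all on the opposite strand. On the RSEM expected counts, which were assigned separately, these 5 genes had log2 fold changes of 0.15, -0.13, 0.15, -0.17 and -0.47 in that order. From the raw counts the values were 0.16, -0.01, 0.10, -0.18 and -0.45. Outside these 5, Sirt1 at 0.44 and Hdac5 at -0.64 stayed close to their raw-count values. Hdac10 went from -0.08 to 0.14, Hdac9 from 0.05 to -0.02 and Sirt6 from -0.27 to -0.16.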

How the data were processed

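RNA-seq libraries of AB2.2 ESCs, 2 control and 2 lactate, were compared. The authors trimmed reads with cutadapt 1.16, aligned them to mm10 by STAR and took exon counts per gene from that alignment (annotation GENCODE M23). The deposited counts are raw. The authors also deposited RSEM output per library, namely expected counts, TPM, FPKM and other values such as transcript lengths. The program that counted transposable elements is not given in the sources used here.

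The tools were edgeR 4.0.16, DESeq2 1.42.0 and limma 3.58.1, run under R 4.3.3. Transposable elements were left out. Genes passed filterByExpr, factors came from TMM, and the legacy quasi-likelihood test was fitted without a replicate term, with Benjamini-Hochberg adjustment over the 18661 genes tested. The biological coefficient of variation was 15.9%. A standard error is the log2 fold change divided by the square root of F. FPKM was tested with limma-trend on log2(FPKM + 1) over genes with a mean above 0.1, a scale that understates changes of low genes. RSEM counts were rounded. Positions and exon overlaps came from GENCODE M21 on GRCm38, the same build, where 31 of the 33 genes had the same version. The tests were tried on simulated data.

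The 33 genes, the related lists and the tests were chosen with earlier results of these data known. Full values are given for Ep300, Crebbp and the genes with an unadjusted p under 0.05 or among the 8 largest absolute changes; of each related list, called genes and otherwise the 3 with the smallest p-values were named. Alternatives were other tools, factors, filters, units and pseudocounts, a replicate block and each library left out; leaving out mitochondrial genes, and applying the alternatives to the related lists, were chosen after the data were seen.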

Additional observations from a re-analysis of the deposited data

How the results depend on the processing

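No gene of the 33 was called with a change of more than 2-fold under any of the 15 alternatives, and the median over the 33 genes lay between -0.21 and 0.05. Of 495 values (33 genes under 15 alternatives), 436 kept their direction and their side of the threshold, 18 passed it, 41 changed sign, and 20 genes never changed sign. The cause of these shifts was not tested. On FPKM, 0 of all 20019 genes tested were called with either pseudocount, so those fits do not set the 33 genes apart. By adjusted p alone, 1 gene (Hdac5) passed without a filter on low counts, where 1647 of all 32923 genes passed. The count of 7 genes with unadjusted p under 0.05 became 4 with DESeq2 and 4 on FPKM with either pseudocount, while the share of all genes went from 23.1% to 8.70% with DESeq2 and to 14.6% and 14.8% on FPKM. The 6 lower ones became 3 with DESeq2, 3 with library totals alone and 2 on FPKM with either pseudocount. Leaving out each library in turn gave 0 to 2 for both counts, against 14.6% to 21.5% of all genes with an unadjusted p under 0.05. The 1 call among the related lists became 2 with DESeq2, 2 without a filter, 0 with library totals alone, 0 on RSEM counts and 0 on FPKM. Over all genes, the calls went from 168 of 18661 to 358 of 16965 with DESeq2 and 807 of 32923 without a filter. They were 148 of 18661 with library totals alone, 44 of 15595 on RSEM counts and 0 of 20019 on FPKM.

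Replicate numbers were shared between groups, and the deviations of same-numbered libraries correlated at 0.56 over all genes tested, but the labels do not say what a number marks and there are only 2 pairs. With a replicate block, 17 of the 33 genes had an adjusted p under 0.05 (edgeR), against 44.5% of all genes tested. An unadjusted p under 0.05 was held by 19 (12 lower), against 51.2% of all genes. In the related lists 2 genes were called, where 1156 of all 18661 genes were. Ep300 was among the 17, with a log2 fold change of 0.17, SE 0.06 and adjusted p = 0.0210 (edgeR). Crebbp was not, at 0.05 with adjusted p = 0.616.

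With all 4 libraries kept, the following signs changed. Sirt2 was at -0.016 with DESeq2, -0.0019 with RLE factors, -0.041 without a filter, -0.0098 with the replicate block and -0.0098 without mitochondrial genes. Upper-quartile factors gave 0.017 for Kat8, 0.023 for Hdac11 and 0.017 for Brd7, and library totals alone gave 0.023 for Kat7, 0.050 for Kat8, 0.059 for Hdac11 and 0.052 for Brd7. Kat6b was at -0.012 without a filter and Hdac11 at 0.0028 with at least 10 counts in every library. RSEM counts gave -0.023 for Hdac9 and 0.14 for Hdac10, and FPKM gave 0.11 and 0.12 for Kat8 and 0.11 and 0.15 for Hdac10 with pseudocounts of 1 and 0.1. With each library left out in turn, where the lone library is assumed to vary like the other group, the range was -0.077 to 0.37 for Ep300, -0.26 to 0.30 for Crebbp, -0.27 to 0.30 for Kat6b, -0.17 to 0.045 for Kat7, -0.075 to 0.024 for Kat8, -0.0032 to 0.23 for Hdac2, -0.091 to 0.33 for Hdac8, -0.27 to 0.43 for Hdac9, -0.36 to 0.13 for Hdac10, -0.36 to 0.24 for Hdac11, -0.30 to 0.23 for Sirt2, -0.21 to 0.47 for Sirt3 and -0.20 to 0.13 for Brd7. Arms of 2 libraries limit every interval, and the thinly counted Hdac9 and Hdac11 had the largest standard errors of the 33 genes.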
